A study of Mus musculus with 6 samples.

Results

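The neuromuscular junction genes described here are 10 genes that build or serve the contact between motor nerve and muscle fibre. They were taken by symbol from a table of 13226 genes, in which all 10 were present. Of these, 5 encode subunits of the muscle acetylcholine receptor (Chrna1, Chrnb1, Chrnd, Chrne and Chrng), 4 encode proteins that gather the receptor under the nerve ending (Musk, Dok7, Lrp4 and Rapsn) and Ache encodes the enzyme that removes the transmitter. RNA was sequenced from whole tibialis anterior (TA) muscle of male C57BL/6 mice that had received a vector at 8 weeks of age, with muscles collected 7 days later. Of the 6 muscles, 3 were injected with AAV6:Yap-shRNA, an adeno-associated virus carrying a short hairpin RNA against Yap, and 3 were controls. The control is named as AAV6:LacZ-shRNA by the vector field and the protocol, and as an empty vector by the titles, and is called control here. All mice were otherwise of the same strain and sex, and no other allele or agent is named. Each mouse carried a control TA and a treated TA on opposite sides, but no label says which muscles came from the same mouse. The Yap hairpin was cloned into a plasmid that holds eGFP and a CMV promoter, which is not specific to muscle, and whole muscle also holds nerve, vessel, connective tissue and immune cells.

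When a motor nerve fires, it releases acetylcholine, which opens the receptor on the muscle membrane and starts contraction. The nerve also secretes agrin, which binds Lrp4 and thereby activates the kinase MuSK. With Dok7 as its partner inside the cell, MuSK drives the clustering of receptors through rapsyn, the product of Rapsn. In fetal muscle the receptor holds the gamma subunit (Chrng), and after birth the epsilon subunit (Chrne) takes its place, made mainly by the nuclei beneath the nerve. When a muscle loses its nerve or falls silent, nuclei along the whole fibre resume transcription of the receptor genes, a response best known for Chrna1, Chrnd, Chrng and Musk. Yap is a co-activator of transcription that acts through the TEAD family of DNA-binding proteins, and it has been tied to the formation of the junction. The comparison of the groups asks how these genes stood in muscle with less Yap transcript.

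Sequence before the start site is shown for 4 receptor subunit genes. Chrna1 and Chrng rose and fell together from muscle to muscle, Chrnb1 followed them in part, and Chrne had a pattern of its own. The table of RefSeq promoters, on mouse build GRCm38.p6, matched 7 of the 10 genes and holds 250 bases before to 50 bases from each start. Chrnd, Rapsn and Lrp4 were not matched. The 250 bases before the start are given here 5′ to 3′ on the strand of the gene, with capitals for an E-box (CANNTG), an N-box (CCGGAA) or an MCAT element (CATTCC), each searched on both strands. E-boxes are the letters read by myogenic factors such as MyoD and myogenin, the N-box by ETS-family factors in genes of the synapse, and MCAT by the TEAD proteins that Yap joins.
Chrna1, chr2:73580339-73580588, minus strand: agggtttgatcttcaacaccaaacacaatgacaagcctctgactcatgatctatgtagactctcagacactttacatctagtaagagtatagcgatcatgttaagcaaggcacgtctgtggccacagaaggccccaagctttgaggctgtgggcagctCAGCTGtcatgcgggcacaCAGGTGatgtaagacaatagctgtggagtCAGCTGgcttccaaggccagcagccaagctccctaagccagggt
Chrng, chr1:87205561-87205810, plus strand: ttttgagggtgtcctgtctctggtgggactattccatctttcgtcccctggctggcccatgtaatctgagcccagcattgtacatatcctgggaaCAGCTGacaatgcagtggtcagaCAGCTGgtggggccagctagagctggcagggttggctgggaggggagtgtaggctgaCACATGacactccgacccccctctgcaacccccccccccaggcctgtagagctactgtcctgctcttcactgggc
Chrne, chr11:70619195-70619444, minus strand: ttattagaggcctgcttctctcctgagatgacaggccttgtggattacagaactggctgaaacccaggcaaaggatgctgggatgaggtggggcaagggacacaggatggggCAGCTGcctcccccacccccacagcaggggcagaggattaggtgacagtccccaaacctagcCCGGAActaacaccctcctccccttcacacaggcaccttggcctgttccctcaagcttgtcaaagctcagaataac
Chrnb1, chr11:69795938-69796187, minus strand: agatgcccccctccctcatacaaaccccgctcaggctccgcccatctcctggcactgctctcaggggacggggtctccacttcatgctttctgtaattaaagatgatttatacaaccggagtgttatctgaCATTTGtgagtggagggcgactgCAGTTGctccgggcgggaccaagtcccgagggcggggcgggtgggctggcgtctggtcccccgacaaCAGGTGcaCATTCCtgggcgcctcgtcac

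Chrna1 and Chrng each held 3 E-boxes, and in both genes 2 of these read CAGCTG, a form that is itself one of the CANNTG letters. Counted from the start site, the CAGCTG boxes of Chrna1 began at -92 and -44 and those of Chrng at -155 and -132. All positions count from the RefSeq start. The gene annotation begins Chrng at 87204657, before its window, so its positions hold for the RefSeq start alone. Among 32851 promoters of 300 bases, 17.6% held 3 or more E-boxes and 1.90% held 2 or more CAGCTG boxes. Chrne had a single E-box, CAGCTG at -138, and an N-box at -76, letters found in 14.9% of all promoters. In Chrnb1 there were 3 E-boxes, none reading CAGCTG, and an MCAT element at -21, and 14.7% of all promoters had an MCAT element. Musk also had 3 E-boxes, 1 of them CAGCTG, Ache had 1, and Dok7 had 1 in the first of its 2 windows. An MCAT element was found in the window of Chrnb1 alone among the 7 genes matched. A match of letters is a description and not a bound site.

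Chrna1 encodes the alpha subunit, which carries the main part of the acetylcholine binding site, and lies on chromosome 2 (73563215 to 73580338, minus strand; ENSMUSG00000027107). Values are CPM, counts scaled to the size of the library by edgeR's TMM method, and control 1 to 3 come before Yap-shRNA 1 to 3. Chrna1 stood at 22.3, 16.5 and 16.9 CPM in the controls and at 35.7, 12.1 and 31.1 CPM after Yap-shRNA. The highest and the lowest muscle were both in the Yap-shRNA group, and the groups overlapped. The group means were 18.5 ± 3.23 CPM (SD, n = 3) in control and 26.3 ± 12.5 CPM (SD, n = 3) in Yap-shRNA muscle. By edgeR's quasi-likelihood test the log2 fold change of Yap-shRNA over control was 0.50 (SE 0.32, 95% interval -0.23 to 1.23, adjusted p = 1.00).

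Chrng, the gene of the fetal gamma subunit, lies on chromosome 1 (87204657 to 87212694, plus strand; ENSMUSG00000026253). Few reads fell on it, with 22, 4 and 6 counts in the controls and 34, 2 and 30 counts in Yap-shRNA muscles. On the CPM scale these were 1.71, 0.33 and 0.49 against 2.85, 0.15 and 2.39. From highest to lowest the order of the 6 muscles was Yap-shRNA 1, Yap-shRNA 3, control 1, control 3, control 2 and Yap-shRNA 2, which was also their order for Chrna1. The groups overlapped, and the log2 fold change of 1.05 had an SE of 0.81 and a 95% interval of -0.76 to 2.85 (edgeR quasi-likelihood test, adjusted p = 1.00). The interval spans from 0.59 to 7.22 times the control level, so at this depth neither a lower nor a several-fold higher level could be told from the spread between muscles.

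Chrnd encodes the delta subunit and is the neighbour of Chrng on chromosome 1 (87190607 to 87200070, plus strand; ENSMUSG00000026251). Control muscles stood at 3.97, 4.18 and 2.87 CPM and Yap-shRNA muscles at 6.71, 2.99 and 5.74 CPM. Again Yap-shRNA 1 and Yap-shRNA 3 were the highest and Yap-shRNA 2 lay within the control range. The log2 fold change was 0.48 (SE 0.30, 95% interval -0.19 to 1.15, adjusted p = 1.00 by edgeR's quasi-likelihood test).

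Chrne encodes the epsilon subunit of the adult receptor and lies on chromosome 11 (70614883 to 70619216, minus strand; ENSMUSG00000014609). Its levels were 15.96, 15.64 and 20.19 CPM in the controls and 14.60, 13.36 and 15.63 CPM after Yap-shRNA. Every Yap-shRNA muscle lay below every control muscle, but control 2 and Yap-shRNA 3 were almost level. The Yap-shRNA mean of 14.5 ± 1.14 CPM was 84.2% of the control mean of 17.3 ± 2.54 CPM (SD, n = 3 each). The log2 fold change was -0.25 (SE 0.14, 95% interval -0.56 to 0.06, adjusted p = 1.00 by edgeR's quasi-likelihood test), and an exact permutation test gave p = 0.10, two-sided, the smallest that 3 muscles against 3 allow. With upper-quartile scaling in place of TMM the groups overlapped.

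Chrnb1, on chromosome 11 (69784036 to 69795943, minus strand; ENSMUSG00000041189), encodes the beta subunit. It measured 58.6, 44.3 and 47.5 CPM in the controls and 44.8, 32.2 and 50.6 CPM after Yap-shRNA. Control 1 was the highest, Yap-shRNA 2 the lowest, and the groups overlapped. Its log2 fold change was -0.24 (SE 0.17, 95% interval -0.62 to 0.14, adjusted p = 1.00 by edgeR's quasi-likelihood test).

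**Figure D1:**
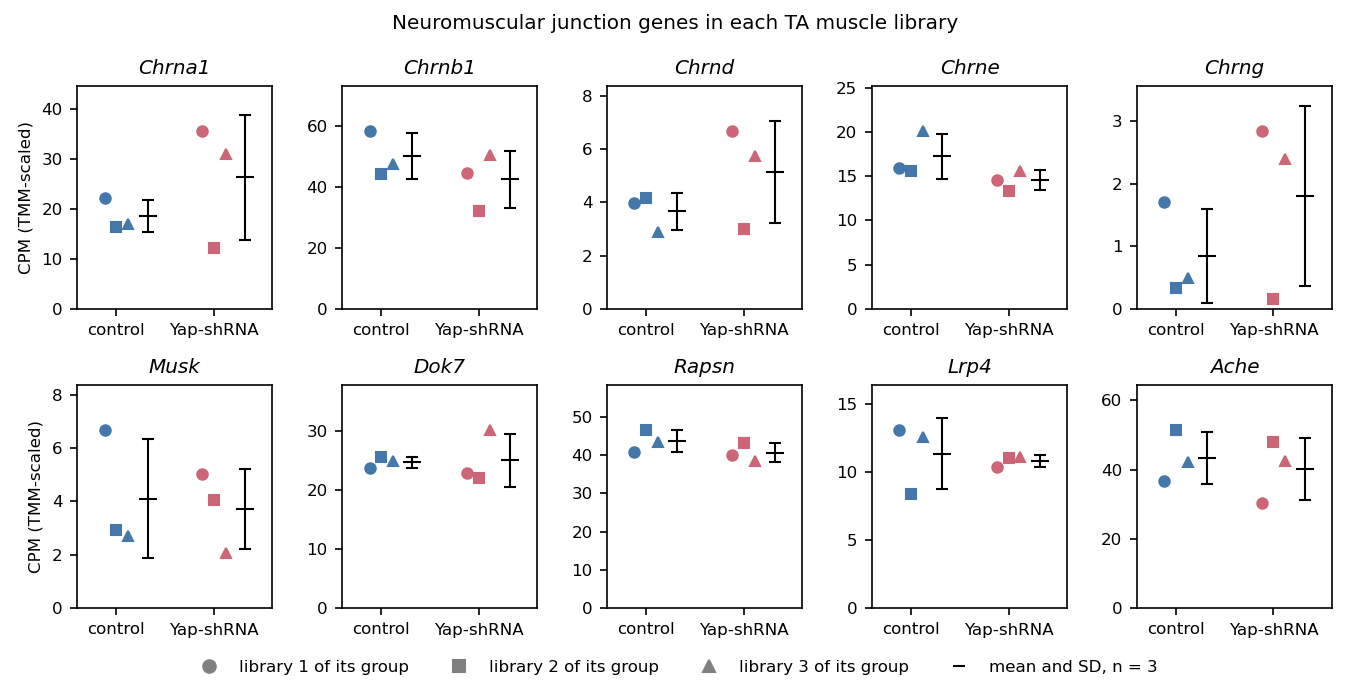
Level of each neuromuscular junction gene in each TA muscle, in CPM after TMM scaling, with an axis from 0 for each gene; the symbols are the muscles (blue, control; red, Yap-shRNA) and the black bars show the mean and SD of 3 muscles. Chrna1, Chrnd and Chrng are spread widely within the Yap-shRNA group, whereas Rapsn varies little over the 6 muscles.

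The genes that assemble the synapse overlapped between groups. Lrp4, the agrin receptor (chromosome 2, 91457511 to 91513779, plus strand), stood at 13.1, 8.36 and 12.6 CPM in the controls and at 10.3, 11.0 and 11.1 CPM in Yap-shRNA muscles. The Yap-shRNA values fell within the control range, and the log2 fold change was -0.07 (SE 0.18, 95% interval -0.48 to 0.33). Musk, the kinase gene (chromosome 4, 58285960 to 58374303, plus strand), was at 6.69, 2.93 and 2.71 CPM in the controls and at 5.03, 4.07 and 2.07 CPM in Yap-shRNA muscles. Control 1 was the highest, and Yap-shRNA 3, among the highest for Chrna1, was here the lowest. Its log2 fold change was -0.15 (SE 0.40, 95% interval -1.06 to 0.76).

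Dok7, which encodes the cytoplasmic activator of MuSK (chromosome 5, 35056766 to 35087839, plus strand), measured 23.7, 25.6 and 24.9 CPM in the controls and 22.9, 22.0 and 30.2 CPM in Yap-shRNA muscles. The control muscles fell between the Yap-shRNA values, and the log2 fold change was 0.02 (SE 0.13, 95% interval -0.28 to 0.32). Rapsn, whose product anchors the receptor (chromosome 2, 91035620 to 91045729, plus strand), stood at 40.9, 46.7 and 43.4 CPM in control and 40.1, 43.3 and 38.6 CPM in Yap-shRNA muscles. It was the steadiest of the 10 genes, with a ratio of 1.21 between the highest and the lowest muscle, against a median of 1.43 over all genes tested. The log2 fold change of Rapsn was -0.10 (SE 0.10, 95% interval -0.32 to 0.12).

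Ache encodes acetylcholinesterase, which splits acetylcholine in the synaptic cleft, and lies on chromosome 5 (137287519 to 137294466, plus strand). Its level was 36.7, 51.5 and 42.1 CPM in the controls and 30.4, 47.8 and 42.4 CPM in Yap-shRNA muscles. The highest was control 2 and the lowest Yap-shRNA 1, with the groups overlapping. The log2 fold change was -0.11 (SE 0.18, 95% interval -0.51 to 0.29). For Lrp4, Musk, Dok7, Rapsn and Ache the adjusted p was 1.00 in each case.

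Across the 10 genes, 4 had a log2 fold change above 0 and 6 below it, with a median of -0.09 against -0.0025 over all 13113 genes tested. That median turned to 0.02 without control 1 and 0.0087 without Yap-shRNA 1, and was -0.01 without control 2 and -0.05 without control 3. None passed an adjusted p of 0.05, and 0.0% of all genes did so by edgeR's quasi-likelihood test. At an unadjusted p under 0.05 there were again 0 of the 10, beside 1.61% of all genes (211 of 13113). That share is lower than the 0.05 that no difference at all would give, and why was not tested. Even Yap1, at 46.5% of control, did not pass the adjusted threshold by this test. All 3 Yap-shRNA muscles lay above all 3 control muscles for 0 of the 10, where 2.55% of all genes did so, and below them for 1 of the 10 (Chrne), where 2.73% of all genes did so. DESeq2 and edgeR's likelihood ratio test each called 5 genes of the whole table, none of them among the 10. The lowest adjusted p of any of the 10 under any alternative was 0.706, for Chrng without control 1. The intervals still allow sizeable differences in Chrng, Musk, Chrna1 and Chrnd, so a p above the threshold does not show equal levels.

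**Figure D2:**
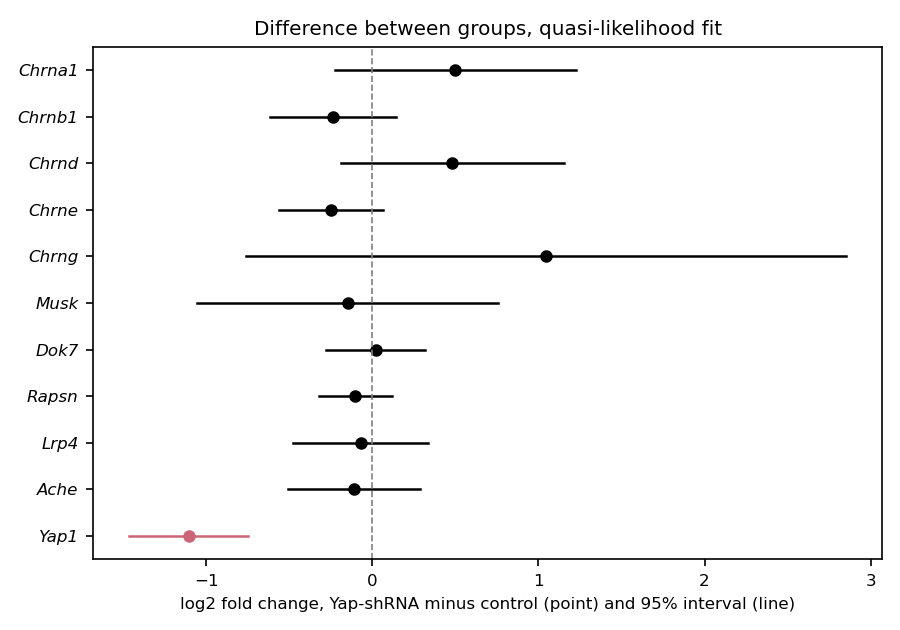
Log2 fold change of Yap-shRNA over control for each neuromuscular junction gene and, in red, for Yap1; points are estimates of edgeR's quasi-likelihood fit and lines their 95% intervals, from 3 muscles a group. All 10 intervals include 0, and that of Chrng is the widest, from -0.76 to 2.85.

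The targeted gene bore out the labels. Yap1 stood at 71.2, 65.3 and 68.4 CPM in the controls and at 32.0, 23.9 and 39.5 CPM in Yap-shRNA muscles, with no overlap. The mean under Yap-shRNA was 46.5% of control, for a log2 fold change of -1.10 (SE 0.16, 95% interval -1.46 to -0.75, adjusted p = 0.323 by edgeR's quasi-likelihood test), and exact permutation gave p = 0.10. Among the Yap-shRNA muscles, Yap-shRNA 2 had the least Yap1 and also the least Chrna1 and Chrng, while Yap-shRNA 3 had the most Yap1 and Yap-shRNA 1 the most Chrna1 and Chrng. The 6 libraries held 11987167 to 12710393 counts, and no 2 muscles of a group agreed within sampling noise. Because the samples are whole muscles, fewer cells of a type and less RNA per cell cannot be told apart in any of these values. No source states how the numbered muscles were kept apart beyond their labels, so the p-values measure the spread between these samples.

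Chrna1, Chrng and Chrnd varied together from muscle to muscle, in an order that crossed the groups. Over the 6 muscles the log2 CPM of Chrna1 and Chrng had a Pearson r of 0.97 (Spearman's rho 1.00), that of Chrna1 and Chrnd an r of 0.91 (rho 0.71) and that of Chrnd and Chrng an r of 0.83 (rho 0.71). These are descriptions over 6 points that share each library's depth and scaling. Chrne, the adult subunit, had an r of -0.02 with Chrna1. Chrnb1 had an r of 0.57 with Chrna1 and 0.68 with Chrng. Rapsn ran opposite to Chrng (r = -0.84) and to Chrna1 (r = -0.78), and so did Ache (r = -0.80 and -0.76). Musk, often raised with Chrna1 in muscle without nerve, had an r of 0.05 with it.

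Relative to its own mean over the 6 muscles, Chrna1 deviated by 0.77 in Yap-shRNA 1, 0.57 in Yap-shRNA 3, 0.09 in control 1 and -0.78 in Yap-shRNA 2 on the log2 scale. Chrng deviated in the same muscles by 1.499, 1.26, 0.81 and -1.76, so the 2 genes moved the same way in each and Chrng further. Chrnd shared this in the Yap-shRNA muscles, at 0.65, 0.43 and -0.47, but not in control 1, at -0.08. The spread of these genes exceeded that of genes at a like level, since the biological coefficient of variation of Chrna1 was 28.1% against a trend of 13.0%, and that of Chrng 67.9% against 29.7%. For Rapsn it was 9.40% against 12.0%.

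**Figure D3:**
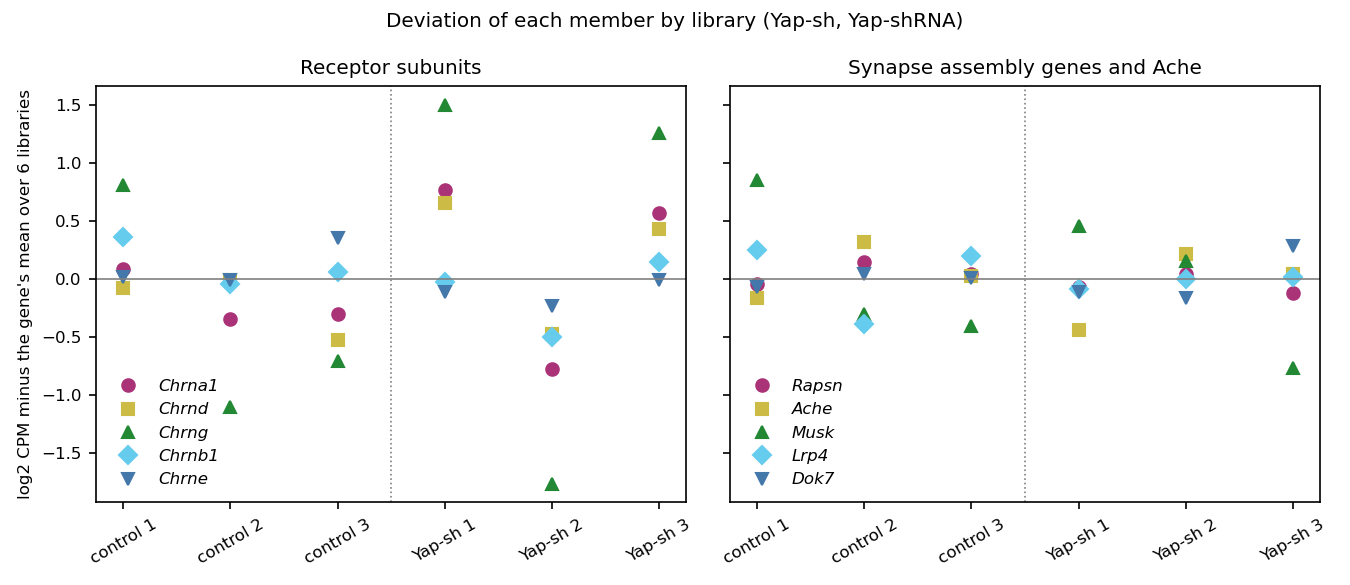
Deviation of each gene from its own mean in each muscle, in log2 CPM (prior count 2), for the receptor subunits on the left and for the synapse assembly genes and Ache on the right. Chrna1, Chrnd and Chrng are highest in Yap-shRNA 1 and Yap-shRNA 3, and Chrna1 and Chrng are lowest in Yap-shRNA 2, while Chrne is highest in control 3.

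Since the Yap-shRNA muscles split in this way, the comparison rests in part on Yap-shRNA 2. Without it, the log2 fold change of Chrna1 was 0.85 (SE 0.16, adjusted p = 0.826 by edgeR's quasi-likelihood test), that of Chrnd 0.76 and that of Chrng 1.601, and no gene of the 10 passed the threshold. With that muscle left out, the groups did not overlap for 5 of the 10 genes, where 12.8% of all genes did not overlap. Chrna1, Chrnd and Chrng lay above control and Chrne and Rapsn below. Yap-shRNA 2 is singled out here because it was lowest for Chrna1 and Chrng, so their separation follows from that choice. Chrna1, Chrnd and Chrng varied together and are not separate results. When Yap-shRNA 1 was left out instead of Yap-shRNA 2, the log2 fold changes of Chrna1, Chrnd and Chrng were 0.22, 0.25 and 0.56. Without control 1 the value of Chrng rose to 2.08.

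Other tissue in the dissected muscle moved with some of these muscles. The summed level of 4 tendon markers tested was 620, 171 and 124 CPM in the controls and 167, 144 and 510 CPM in Yap-shRNA muscles, so control 1 and Yap-shRNA 3 stood apart. The sum of 5 fibroblast markers ran from 1001 to 1957 CPM in control and from 1184 to 2227 CPM in Yap-shRNA muscles, with the same muscles highest. Embryonic myosin (Myh3), a gene of the muscle fibre itself, was picked after its values were seen. It was at 13.6 and 16.9 CPM in those muscles and between 1.15 and 3.44 CPM in the others. Myh3 belongs to a list of genes of fetal and regenerating fibres and of satellite cells, the stem cells of muscle. Of the other genes tested from it, Myh8, Myl4 and Tnnt2 were also highest in those muscles. Myod1, Myf5, Pax7, Actc1 and Cdh15 were not. Yap-shRNA 1, where Chrna1, Chrnd and Chrng were highest, was not high in the tendon markers, the fibroblast markers or Myh3. With control 1 and Yap-shRNA 3 left out together, the log2 fold change of Chrna1 was 0.51 and that of Chrnd 0.45, and Chrng had too few counts to be tested. Schwann cell markers, which follow the nerve into the muscle, summed to 111, 183 and 148 CPM in control and 144, 165 and 135 CPM in Yap-shRNA muscles, and all 10 were detected. The 10 muscle fibre markers of the labelled tissue summed to 132996 to 159749 CPM. The part of these tissues in the values of the 10 genes was not tested.

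Levels of different genes can be compared only per length, so CPM was divided by the kilobases of summed exons. On this scale, over the 6 muscles, Rapsn was the most abundant of the 10 genes at a mean of 23.4 CPM per kb, followed by Chrnb1 at 18.3, Chrne at 9.40, Ache at 9.05, Dok7 at 5.82 and Chrna1 at 5.11. Chrnd at 1.34, Lrp4 at 1.05, Musk at 1.04 and Chrng at 0.32 CPM per kb formed the lower end. Most neighbours in this order overlapped over the 6 muscles, and the exceptions were the steps from Chrnb1 to Chrne and from Chrna1 to Chrnd. When the length of the longest protein-coding transcript was used in place of the summed exons, Ache rose to 19.1 CPM per kb and passed Chrne at 9.84. The receptor subunits thus spanned from Chrnb1 to Chrng, the highest and the lowest of the 5.

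**Figure D4:**
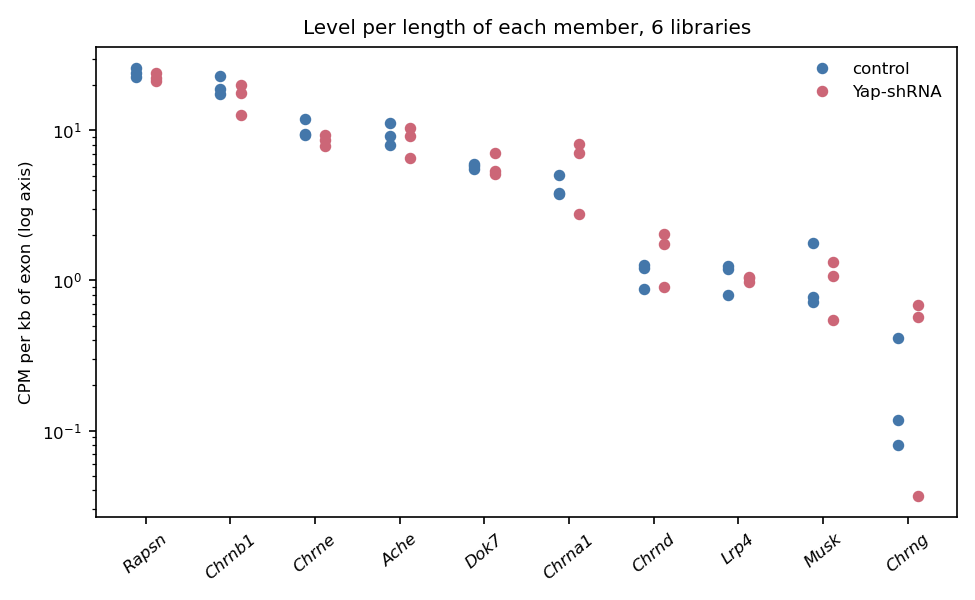
Level per length of each gene, in CPM per kb of summed exons on a log axis, with a point for each muscle (blue, control; red, Yap-shRNA) and genes ordered by their mean. Rapsn and Chrnb1 lie at the top, and Chrng at the bottom is spread most.

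The balance of fetal to adult subunit was read as the ratio of Chrng to Chrne per length in each muscle. It was 4.36%, 0.87% and 0.99% in the controls and 7.93% and 6.21% in Yap-shRNA 1 and Yap-shRNA 3. In Yap-shRNA 2, where Chrng had 2 counts, no ratio is given. That muscle had the least Chrng of the 6, so the printed ratios do not show that the groups are apart. The ratios of control 2 and control 3 rest on 4 and 6 counts of Chrng. The fetal form was thus the minor one in each muscle with a ratio, and control 1 lay well above the other control muscles. For Chrna1 to Chrne the ratio was 0.54, 0.41 and 0.32 in the controls and 0.94, 0.35 and 0.77 in Yap-shRNA muscles. Chrnd to Chrne gave 12.8%, 13.7% and 7.31% in the controls and 23.6%, 11.5% and 18.9% in Yap-shRNA muscles. By contrast Chrnb1 to Chrne stayed between 1.57 and 2.45 in all 6 muscles, with the extremes both in control muscles.

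The wider pathway was taken from lists of genes. Of 28 partners in synaptic signalling and matrix, such as agrin and the collagen tail of acetylcholinesterase, 24 were tested, none passed the threshold, 14 lay above 0 and 10 below, and the median log2 fold change was 0.01. The highest was Abl2, a kinase, at 0.27, and the lowest Colq, the collagen tail that holds the esterase in the cleft, at -0.32. Colq stood at 8.56, 9.87 and 10.2 CPM in control and 7.80, 5.99 and 9.09 CPM in Yap-shRNA muscles, which overlapped. Of 19 genes of the postsynaptic scaffold and membrane, 17 were tested, none was called, 6 lay above 0 and 11 below, and the median was -0.03. Sntb2 (a syntrophin) at 0.35 and Ufsp1 at -0.24 were the extremes, and Nes, which encodes the intermediate filament nestin of the junctional region, had a log2 fold change of -0.22. For Nes, picked after its values were seen, every Yap-shRNA muscle lay below control, as they did for 2.73% of all genes. Control 3 at 51.20 CPM and Yap-shRNA 3 at 51.04 CPM were almost level.

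Genes listed for a response to denervation or inactivity mostly lay above 0 without passing the test. Of 19 listed, 17 were tested and none was called, yet 16 lay above 0 and 1 below, with a median log2 fold change of 0.24 against -0.0025 over all genes, of which 49.0% lay above 0. With single muscles left out, the median was 0.38 without control 1, 0.41 without control 3 and 0.20 at its lowest, without control 2. It was 0.17 with limma-voom and 0.18 when 10 counts were required in every library. The 6 macrophage markers also lay above 0, with a median of 0.24, and their part in these values was not tested. The denervation list was not split by the way each gene responds, so the number above 0 does not count denervation-like changes. Dach2 at 0.24 and Hdac9 at 0.17, for instance, are counted there, while Myog was the 1 below. The list was chosen with earlier results of these data known, so its direction is not independent evidence. Among them 3 had an unadjusted p under 0.05, beside the 1.61% of all genes, and these were Cdkn1a (log2 fold change 0.58), which encodes the cell cycle inhibitor p21, Tnfrsf12a (0.53), the receptor of the cytokine TWEAK, and Gadd45a (0.52), a stress-response gene. They were picked after their values were seen. Gadd45a stood at 16.6, 18.1 and 15.4 CPM in the controls and at 28.9, 17.1 and 26.1 CPM in Yap-shRNA muscles, so Yap-shRNA 1 and Yap-shRNA 3 were the highest, as for Chrna1, and Yap-shRNA 2 was within the control range. Cdkn1a differed from that order, at 35.2, 29.0 and 38.8 CPM against 47.1, 43.3 and 63.9 CPM. All Yap-shRNA muscles lay above control for Cdkn1a, as they did for 2.55% of all genes. Myog, the gene of myogenin, which drives the receptor genes in silent muscle, had the lowest at -0.33 (SE 0.32), with 9.57, 5.10 and 3.94 CPM in control and 5.20, 3.69 and 5.98 CPM in Yap-shRNA muscles.

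Another list joined markers of satellite cells with genes of fetal and regenerating fibres, the fibres that use the gamma subunit. Of its 11 genes 9 were tested and none was called, with 3 above 0 and 6 below. The median of -0.16 ran from -0.95 without Yap-shRNA 3 to 0.05 without control 1. Myod1 was the highest at 0.16. The lowest was Actc1, the cardiac actin of developing muscle, at -1.14 (SE 0.24, adjusted p = 1.00 by edgeR's quasi-likelihood test), with 374, 481 and 341 CPM in control and 125, 255 and 161 CPM in Yap-shRNA muscles. All Yap-shRNA muscles were below control for Actc1, as they were for 2.73% of all genes. The likelihood ratio test called Actc1.

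By likeness over the 6 muscles, the genes of the whole table closest to the mean pattern of the 10 were Ric8a (Pearson r 0.99), Cog1 (0.99), Magi1 (0.98), RP23-60P23.9 (0.98) and Adam23 (0.98). These are the 5 highest of the whole table over only 6 points. The mean is not a pattern that all 10 genes share, since Rapsn and Ache ran opposite to Chrna1 and Chrng. In the Yap-shRNA muscles Chrng, the gene with the fewest counts, deviated furthest and so weighed most in the mean. In Magi1 the order of muscles was that of Chrna1 and Chrng, at 6.15, 3.60 and 4.43 CPM in control and 6.46, 3.22 and 6.30 CPM in Yap-shRNA muscles. Ric8a spanned much less, from 17.9 to 21.1 CPM.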

How the data were processed

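The neuromuscular junction genes and all gene lists were chosen with earlier results of these data known. Polyadenylated RNA of 6 TA muscles was extracted with TRIzol and prepared with Illumina TruSeq reagents. Per the labels, the submitters' processing notes name bcl2fastq 2.20.0.422 and GRCm38; the aligner, counter and strand setting are not given in the sources used here. The authors deposited raw read counts per gene, without normalisation, for 13226 genes with at least 60 counts over the 6 libraries. All 6 columns matched a sample by name.

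The filter of edgeR 4.0.16 (filterByExpr, run in R 4.3.3) kept 13113 genes. TMM scaling preceded a two-sided quasi-likelihood test whose design held the group alone. P-values were adjusted over all genes kept (Benjamini-Hochberg, threshold 0.05). Each SE was obtained from the fold change and the root of its F statistic, and 95% intervals from the same fit. The common biological coefficient of variation was 15.7%. The code was tested on simulated data. Log2 CPM used a prior count of 2, and no ratio was given at or under 3 counts. Positions and exon lengths came from GENCODE M21 on GRCm38 and promoters from RefSeq. Without a known strand setting, reads of Ache (98 exon bases) and Rapsn (4 exon bases) cannot be told from those of an opposite-strand gene.

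The named genes were the 10 members, Yap1, the highest and lowest gene by log2 fold change of each list, any list gene past the threshold, and the 5 genes most like the members' mean; 2 genes that this rule covers are not reported here. The alternatives were DESeq2 1.42.0, the likelihood ratio test, limma-voom (limma 3.58.1), upper-quartile and RLE scaling, other count filters, a replicate block, and leaving out each muscle. Leaving out control 1 and Yap-shRNA 3 together was chosen after seeing the data. The lists were synaptic partners, postsynaptic scaffold, denervation response, satellite cell and fetal fibre, other receptor subunits, acetylcholine handling and glycosylation genes of myasthenia. Further lists held markers of fibre, Schwann, endothelial, fibroblast, macrophage, adipocyte and tendon cells. No list was given a set test.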

Additional observations from a re-analysis of the deposited data

How the results depend on the processing

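None of the 10 genes passed the threshold under any alternative. Of all genes tested, 5 passed with DESeq2, 5 with the likelihood ratio test, 4 with control 1 and Yap-shRNA 3 left out, and 0 to 1 with single muscles left out (1 without control 1 and 1 without Yap-shRNA 3), against 0 in the quasi-likelihood test. Over the lists, 1 gene passed with the likelihood ratio test. Yap1 passed with DESeq2 (log2 fold change -1.10, adjusted p = 5.05e-07), the likelihood ratio test (-1.10, adjusted p = 1.72e-06) and with control 1 and Yap-shRNA 3 left out (-1.26, adjusted p = 0.0375), and ran from -1.29 to -0.93 with single muscles left out. Genes of the 10 without overlap between groups numbered 0 with upper-quartile scaling, 4 with control 1 and Yap-shRNA 3 left out (beside 34.8% of all genes), and 1 to 5 with single muscles left out, the 5 without Yap-shRNA 2, beside 10.5 to 23.7% of all genes. The cause was not tested.

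The deviations of same-numbered muscles had an r of -0.07, 0.20 and -0.32. These values cannot tell whether the numbers pair the muscles by mouse. With a replicate block, Yap1 was at -1.13 (adjusted p = 0.070) and 0 genes passed, so no call changed.

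With control 1 and Yap-shRNA 3 left out, Musk turned to 0.69, Dok7 to -0.17 and Lrp4 to 0.026. Scx turned to -0.050 in limma-voom and -0.025 with the block, and Pecam1, near 0, to 0.0023 in DESeq2, 0.0027 in limma-voom, 0.00026 with upper-quartile scaling, 0.0024 with RLE scaling and 0.0028 with the block. Signs also turned with single muscles left out, over ranges of -0.25 to 0.056 for Ache, -0.14 to 0.11 for Dok7, -0.25 to 0.045 for Lrp4, -0.42 to 0.40 for Musk, -0.28 to 0.66 for Adgre1, -0.43 to 1.59 for Adipoq, -0.060 to 0.44 for Bche, -0.048 to 0.16 for Cdh5, -0.47 to 0.77 for Col1a1, -0.038 to 0.097 for Des, -1.91 to 1.48 for Fmod, -0.25 to 0.042 for Gmppb, -0.16 to 0.12 for Lum, -0.10 to 0.36 for Myod1, -0.57 to 0.13 for Myog, -0.076 to 0.10 for Pecam1, -0.072 to 0.39 for S100b, -0.42 to 0.24 for Scx, -0.029 to 0.84 for Sntb2 and -0.48 to 0.12 for Ufsp1. Requiring 10 counts in every library left 9 of the 10 genes, without Chrng, whose 2 to 34 counts limit its precision most.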

Other observations

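Beyond the muscle receptor, 16 other acetylcholine receptor genes were listed and only Chrna10 was tested. It stood at 2.72, 2.68 and 3.36 CPM in the controls and 4.53, 5.30 and 2.31 CPM in Yap-shRNA muscles, with Yap-shRNA 3 the lowest of all 6, for a log2 fold change of 0.47. Of 9 genes that make, split or release acetylcholine, 3 were tested and none passed the threshold. Bche, which encodes butyrylcholinesterase, had the highest log2 fold change at 0.09. Of the glycosylation genes whose loss causes congenital myasthenia, all 5 were tested and none was called, with a median of 0.02 between Gmppb at -0.10 and Alg2 at 0.09.

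Among the marker lists none had a gene past the threshold. The 10 muscle fibre markers had a median log2 fold change of -0.04, from Mylpf at -0.17 to Des at 0.02. For the 10 Schwann cell markers the median was -0.02, from Mag at -0.42 to S100b at 0.15, and it ran from -0.19 without control 1 to 0.23 without control 2. The endothelial median was 0.01, from Pecam1 just under 0 to Cdh5 at 0.05, and the fibroblast median 0.11, from Lum at -0.05 to Col1a1 at 0.21. The fibroblast median turned to -0.15 without Yap-shRNA 3 and -0.08 without control 3 and rose to 0.39 without control 1. All 6 macrophage markers lay above 0, with a median of 0.24, from Adgre1 at 0.09 to Cd68 at 0.72, a median that was 0.00018 without control 3 and 0.69 without control 1, and their summed level of 72.0 to 182 CPM in control overlapped that of 126 to 158 CPM in Yap-shRNA muscles. Adipocyte markers (4 tested of 5) had a median of 1.03, from Fabp4 at -0.10 to Adipoq at 1.13, where Yap-shRNA 3 held 16.3 CPM of Adipoq and no other muscle over 4.75 CPM, and the median was -0.32 without Yap-shRNA 3. Tendon markers (4 tested of 5) had a median of -0.09, from Fmod at -0.18 to Scx at 0.02, and it ran from -1.04 without Yap-shRNA 3 to 0.82 without control 1.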
